A study of Mus musculus with 12 samples.

Results

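Imprinted genes of the H19, Kcnq1ot1, Meg3 and Igf2r clusters were followed: *H19*, *Igf2*, *Kcnq1ot1*, *Cdkn1c*, *Phlda2*, *Dlk1*, *Meg3*, *Rian*, *Mirg* and *Igf2r*. They were found by symbol, 10 of the 50978 rows of the expression table. No rule on expression values was used, but earlier results of these data were known when they were chosen. Expression was measured by poly(A) RNA-seq in mouse embryonic stem cells (ESCs) of the E14 line, grown in medium with 15% serum and LIF, a cytokine that sustains self-renewal. There were 3 lines with 2 libraries each: parental E14 ESCs, ESC + H/F-PRAMEL7WT and ESC + H/F-PRAMEL7ΔN, called PRAMEL7WT ESCs and PRAMEL7ΔN ESCs below. Both derived lines carried HA/FLAG-tagged PRAMEL7, inserted at *Rosa26* with Cas9 and driven by the CAG promoter, and each was a clone grown from a single cell, so that transgene and clone cannot be told apart. PRAMEL7 is a substrate receptor of the CUL2 ubiquitin ligase, and the ΔN form lacks N-terminal residues through which it binds CUL2. The labels put this deletion at 50 residues. The study's text gives a smaller number, and the difference could not be settled. The comparison with parental ESCs asks what PRAMEL7 changes, and that between the derived lines asks what depends on its N-terminus. The derived lines also differ in clone and in the amount of *Pramel7* RNA, given below, so the deletion cannot be told apart from these. The labels name separate dishes of cells as the source of the RNA, so p-values measure the spread between dishes of 1 line.

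An imprinted gene is transcribed mainly from the allele inherited from 1 parent. The choice is carried by DNA methylation that a germ cell places on a control region and that the embryo keeps through the genome-wide loss of methylation after fertilization. In cultured ESCs this methylation can be lost or gained, and imprinted genes are known to vary between lines and clones. *H19*, *Cdkn1c*, *Phlda2*, *Meg3*, *Rian*, *Mirg* and *Igf2r* are normally active on the maternal allele, and *Igf2*, *Dlk1* and *Kcnq1ot1* on the paternal one. The table holds no information on alleles and none on methylation, so each value below is the sum over both alleles.

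The levels are reads scaled to about 1000000 on genes per library (CPM), recovered from the deposited RPKM values, with 18254246 to 19855031 reads on genes per library and 1 read worth 0.0502 to 0.0551 CPM. *Pramel7* itself had 5 and 4 reads in the parental libraries, 1011 and 840 in PRAMEL7WT ESCs, and 7923 and 8161 in PRAMEL7ΔN ESCs. This separated the parental line from both derived lines as labelled, and the libraries labelled ΔN had more *Pramel7* reads than those labelled WT. These counts do not tell the deleted transcript from the full-length one, so they do not check which derived line is which. The 8 markers of pluripotent cells summed to 5067 to 6113 CPM over the 6 libraries, against 8.46 to 14.7 CPM for 10 primitive endoderm markers.

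*H19*, at chr7:142575529-142578143 on the minus strand (GRCm38, the build of the files), encodes a long noncoding RNA of the embryo that is repressed after birth. It was lower in both derived lines than in parental ESCs. Parental ESCs had 26 and 13 *H19* reads (1.34 and 0.705 CPM), PRAMEL7WT ESCs had 1 and 3 reads (0.0506 and 0.165 CPM), and PRAMEL7ΔN ESCs had none. Both libraries of each derived line thus lay below both parental ones. The parental mean was 9.48-fold that of PRAMEL7WT ESCs, with a 95% interval of 3.42 to 36.5 that covers counting error only. It was at least 13.3-fold higher than in PRAMEL7ΔN ESCs, taking 3 reads over the line as the limit that a count of 0 allows. This bound does not include the counting error of the 39 parental reads.

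*Igf2*, the growth factor gene that shares enhancers with *H19*, lies beside it at chr7:142650766-142666816 on the same strand. A control region between them, methylated on the paternal allele, normally lets the maternal allele express *H19* and the paternal one *Igf2*. *Igf2* was low in the same libraries. Parental ESCs had 26 and 17 *Igf2* reads, PRAMEL7WT ESCs had 8 and 4, and PRAMEL7ΔN ESCs had 7 and 1. All 4 derived libraries lay below both parental ones. The parental mean was 3.62-fold that of PRAMEL7WT ESCs (95% counting interval 1.88 to 7.54) and 5.60-fold that of PRAMEL7ΔN ESCs (2.60 to 13.8). Both genes were thus lower in the same lines, from parental levels of 0.198 ± 0.052 CPM per kb of exon (SD, n = 2) for *Igf2* and 0.416 ± 0.183 for *H19*.

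Neither gene passed the filter of more than 1 CPM in 2 libraries, so their tests come from the fit without a filter, over 24916 genes, by limma on log2(CPM + 1) with Benjamini-Hochberg adjustment. There, *H19* fell in PRAMEL7WT ESCs (log2 difference -0.85, SE 0.15, adjusted p = 0.0263) and in PRAMEL7ΔN ESCs (-0.999, SE 0.15, adjusted p = 0.0168). *Igf2* fell in PRAMEL7ΔN ESCs (-0.83, SE 0.16, adjusted p = 0.0347), and in PRAMEL7WT ESCs its difference of -0.70 missed the threshold (adjusted p = 0.0537). In that fit 5.12% of all genes were lower at adjusted p under 0.05 in PRAMEL7WT ESCs and 4.81% in PRAMEL7ΔN ESCs. The pseudocount of 1 CPM compresses these differences: with voom on the recovered reads, *H19* differed by -3.06 and -5.29 and *Igf2* by -1.80 and -2.71, in the same order of lines. Since PRAMEL7ΔN ESCs had no *H19* reads, the size of -5.29 depends on the offset that voom adds to counts. With a pseudocount of 0.1 CPM that difference was -3.43. The values rest on 39 and 43 parental reads, and the calls depended on having all 6 libraries. With any 1 library left out, *H19* in PRAMEL7WT ESCs (adjusted p = 0.0543 to 0.247) and *Igf2* in PRAMEL7ΔN ESCs (0.131 to 0.232) were no longer called, and *H19* in PRAMEL7ΔN ESCs was called only without parental library 2 (0.0485, otherwise up to 0.202), while each difference kept its direction.

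**Figure D1:**
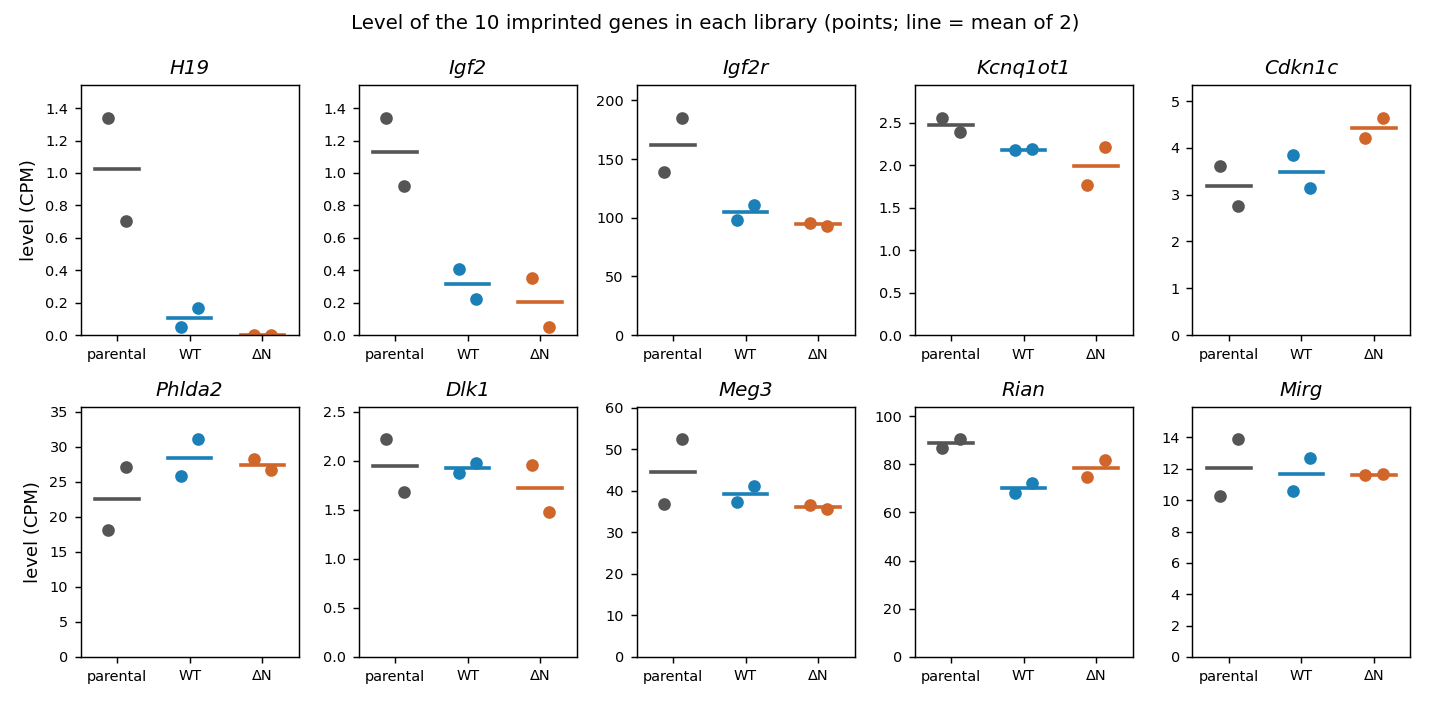
Level in CPM (linear axes from 0, one scale per gene) of the 10 imprinted genes in each of the 6 libraries; points are libraries and lines are the means of 2. *H19*, *Igf2*, *Igf2r*, *Rian* and *Kcnq1ot1* lie below both parental libraries in PRAMEL7WT ESCs, and these genes and *Meg3* do so in PRAMEL7ΔN ESCs. The points of *Dlk1* and *Mirg* overlap. Of all tested genes, which leave out *H19* and *Igf2*, 40% lay below both parental libraries in PRAMEL7WT ESCs and 35.4% in PRAMEL7ΔN ESCs. These shares are for each line by itself.

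*H19* is also the host of a microRNA, and its mature forms are shown because they are cut from the transcript that differed. The hairpin lies in *H19* on the same strand, and the RefSeq sequences follow, with the seed (bases 2 to 8) in capitals.
mmu-miR-675-5p: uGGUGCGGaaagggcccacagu
mmu-miR-675-3p: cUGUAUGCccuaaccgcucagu
Both are 22 bases long, and poly(A) libraries do not measure them. Among the members, *Mirg* holds 14 hairpins on its strand, *Rian* 3, and *Igf2* and *Meg3* 1 each.

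Markers of other cell types are given beside these values. Fibroblast markers were at 44.2 and 57.2 CPM summed over 9 genes in parental ESCs, 22.8 and 23.9 in PRAMEL7WT ESCs, and 44.5 and 39.1 in PRAMEL7ΔN ESCs. *Col1a1* and *Thy1* were called lower in PRAMEL7WT ESCs and *Acta2* in PRAMEL7ΔN ESCs, and *Prrx1*, *Dcn* and *Lum* had no reads. Most of the sum was *Thy1*, which was not called in PRAMEL7ΔN ESCs against parental ESCs. Without it the other 8 genes summed to 4.62 and 4.79 CPM in parental ESCs. Their sums were 2.30 and 2.22 in PRAMEL7WT ESCs and 2.21 and 1.27 in PRAMEL7ΔN ESCs. Of these, *Twist1* was at 0.619 and 0.434 CPM in parental ESCs, 0.658 and 0.551 in PRAMEL7WT ESCs and 0.703 and 0.211 in PRAMEL7ΔN ESCs. According to the study's methods, the ESCs were grown without feeder cells. Trophoblast markers summed to 68.0 and 104 CPM in parental ESCs, 74.4 and 80.3 in PRAMEL7WT ESCs and 43.5 and 45.4 in PRAMEL7ΔN ESCs, with *Prl3d1* at 0. Most of that sum was *Tfap2c*, which fell by 1.26 in PRAMEL7ΔN ESCs, whereas *Eomes* and *Hand1* rose there by 0.96 and 0.71. Without *Tfap2c* the sums were 8.20 and 9.60 CPM in parental ESCs, 8.25 and 11.3 in PRAMEL7WT ESCs and 13.1 and 14.5 in PRAMEL7ΔN ESCs. Of the primitive endoderm markers, *Gata4* rose by 0.69 and 0.78 and *Pdgfra* fell by 0.60 and 0.66 in PRAMEL7WT and PRAMEL7ΔN ESCs. *Sox7* was called higher in PRAMEL7WT ESCs alone (0.58), and *Hnf4a* lower in PRAMEL7ΔN ESCs alone (-1.04). *Hnf4a* had 18 and 24 reads in parental ESCs, 24 and 14 in PRAMEL7WT ESCs and 0 and 1 in PRAMEL7ΔN ESCs. No other marker of that list was called against parental ESCs. The part of these cells in the *H19* and *Igf2* values was not tested, and in such bulk samples fewer cells of a type and less RNA per cell cannot be told apart.

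*Igf2r*, the receptor that carries IGF2 to lysosomes for degradation, was the member with the clearest difference. Its levels were 139 and 185 CPM in parental ESCs, 97.9 and 111 in PRAMEL7WT ESCs, and 95.9 and 93.0 in PRAMEL7ΔN ESCs. All 4 derived libraries lay below both parental ones, which differed from each other by more than the libraries of either derived line. *Igf2r* fell by 0.62 on the log2(CPM + 1) scale in PRAMEL7WT ESCs (SE 0.13, adjusted p = 0.0103) and by 0.76 in PRAMEL7ΔN ESCs (SE 0.13, adjusted p = 0.00429). The parental mean was 1.55-fold and 1.72-fold the means of the 2 lines. The call in PRAMEL7ΔN ESCs held without any 1 library, and that in PRAMEL7WT ESCs was lost without its library 1 (adjusted p = 0.107) or its library 2 (0.0531).

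*Igf2r* lies at chr17:12682406-12769664 on the minus strand and overlaps *Airn*, the antisense noncoding RNA that silences it on the paternal allele in most tissues. *Airn* had 2, 2, 0, 2, 1 and 0 reads, in the order parental, WT and ΔN, so few reads were assigned to it in any line. The kit does not mark strand, so reads from the overlap cannot be told apart. Because *Igf2r* carried the clearest difference, its upstream 250 bases are shown, chr17:12769707-12769956 on the minus strand (RefSeq, GRCm38.p6), with CpG in capitals.
Igf2r upstream: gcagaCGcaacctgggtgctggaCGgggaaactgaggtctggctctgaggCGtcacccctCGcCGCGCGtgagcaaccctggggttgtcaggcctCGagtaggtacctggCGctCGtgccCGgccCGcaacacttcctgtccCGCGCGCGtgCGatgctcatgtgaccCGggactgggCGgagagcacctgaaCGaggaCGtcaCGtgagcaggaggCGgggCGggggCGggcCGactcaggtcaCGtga
This window held 27 CpG, more than 91.4% of the 32851 promoter windows of the same length, whose median was 6.

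In the Meg3 cluster on chromosome 12, *Rian* was the member that passed the test. *Meg3*, *Rian* and *Mirg* are noncoding RNAs that follow one another on the plus strand, and *Dlk1*, upstream of them, encodes a transmembrane protein of the Notch ligand type. On GRCm38 they lie at chr12:109452823-109463336 (*Dlk1*), chr12:109541001-109571726 (*Meg3*), chr12:109603940-109661716 (*Rian*) and chr12:109729764-109749460 (*Mirg*). *Rian*, a host of small nucleolar RNAs, was at 86.9 and 90.3 CPM in parental ESCs, 68.0 and 72.4 in PRAMEL7WT ESCs, and 74.8 and 81.8 in PRAMEL7ΔN ESCs. Both derived lines lay below both parental libraries without overlap. *Rian* fell by 0.33 in PRAMEL7WT ESCs (SE 0.09, adjusted p = 0.0288), whereas its difference of -0.18 in PRAMEL7ΔN ESCs was not called (adjusted p = 0.216). The difference between the derived lines was -0.15 (95% interval -0.36 to 0.05), so the lines were not shown to differ. The call was lost without PRAMEL7WT library 1 (adjusted p = 0.213) or 2 (0.122) or PRAMEL7ΔN library 2 (0.0502). It was also lost under median-ratio scaling (0.0893), without the trend (0.0652) and without the filter (0.0552), and with a correction for GC content and length the difference turned to 0.08.

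*Meg3*, the transcript nearest the control region, was at 36.7 and 52.4 CPM in parental ESCs, 37.4 and 41.2 in PRAMEL7WT ESCs, and 36.6 and 35.7 in PRAMEL7ΔN ESCs. Its differences of -0.16 and -0.27 were not called (adjusted p = 0.473 and 0.250), and they hung on the parental library: without parental library 1 they were -0.41 and -0.52 (adjusted p = 0.0104 and 0.00189), and without parental library 2 they were 0.09 and -0.02. *Mirg*, a host of many microRNAs, stood at 12.1 ± 2.56, 11.6 ± 1.51 and 11.6 ± 0.052 CPM (SD, n = 2) in the 3 lines. *Dlk1* stood at 1.95 ± 0.380, 1.93 ± 0.077 and 1.72 ± 0.339 CPM. Neither was called, with 95% intervals of -0.41 to 0.33 for *Mirg* and -0.42 to 0.41 for *Dlk1* in PRAMEL7WT ESCs.

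The cluster was active in all libraries, with *Rian* giving 57.3 to 64.9% of the reads on the 3 noncoding RNAs, *Meg3* 27.4 to 33.5% and *Mirg* 7.67 to 10.1%. The sum was 134 and 157 CPM in parental ESCs, 116 and 126 in PRAMEL7WT ESCs, and 123 and 129 in PRAMEL7ΔN ESCs. The upstream 250 bases of the first *Meg3* start, shown because loss of *Meg3* is the known sign of ESC lines in which the cluster has been silenced, lie at chr12:109540746-109540995 on the plus strand (RefSeq, GRCm38.p6, CpG in capitals).
Meg3 upstream: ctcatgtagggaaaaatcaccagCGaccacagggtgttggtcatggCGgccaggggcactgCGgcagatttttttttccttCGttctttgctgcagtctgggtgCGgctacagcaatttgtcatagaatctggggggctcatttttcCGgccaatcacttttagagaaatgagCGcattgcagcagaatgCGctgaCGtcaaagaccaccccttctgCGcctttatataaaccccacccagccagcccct
It held 10 CpG and 1 match to TGCCGC, the hexamer bound by ZFP57 when methylated, searched on both strands. Of 12 such windows at 8 members, this was the 1 with a match, and 8.68% of all promoter windows held one. *H19* and *Cdkn1c* had no window in the table.

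In the Kcnq1ot1 cluster on chromosome 7, no member was called in any comparison. *Kcnq1ot1* is the noncoding RNA that silences its neighbours in cis, *Cdkn1c* encodes the cyclin-dependent kinase inhibitor p57, and *Phlda2* encodes a small protein that restrains placental growth. They lie on the minus strand at chr7:143203458-143296549, chr7:143458339-143461050 and chr7:143501545-143503150. *Kcnq1ot1* was at 2.56 and 2.39 CPM in parental ESCs, 2.18 and 2.19 in PRAMEL7WT ESCs, and 1.77 and 2.21 in PRAMEL7ΔN ESCs, with 35 to 50 reads per library. *Cdkn1c* was at 3.61 and 2.77 CPM in parental ESCs, 3.85 and 3.14 in PRAMEL7WT ESCs, and 4.22 and 4.65 in PRAMEL7ΔN ESCs. The ΔN libraries were above the other 4, yet the difference of 0.38 from parental ESCs was not called (95% interval -0.02 to 0.78, adjusted p = 0.167).

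*Phlda2* was at 18.1 and 27.1 CPM in parental ESCs, 25.8 and 31.1 in PRAMEL7WT ESCs, and 28.3 and 26.6 in PRAMEL7ΔN ESCs. Its differences of 0.34 and 0.30 were not called (adjusted p = 0.183 and 0.281). Without parental library 2 they were 0.62 and 0.58 and were called (adjusted p = 0.00242 and 0.00519), and without parental library 1 they were 0.06 and 0.02. *Kcnq1*, which overlaps *Kcnq1ot1* on the other strand, had 1 to 3 reads per library. The kit does not mark strand, so reads from this overlap cannot be told apart either, and how they were assigned is not known.

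Counted over the 8 members that passed the filter, 2 were lower and 0 higher in PRAMEL7WT ESCs, where 16.3% of the 12914 tested genes were lower and 8.71% higher. In PRAMEL7ΔN ESCs 1 was lower and 0 higher, against 13.6% and 6.25% of all genes. The members' share was thus near that of all genes in both lines. The median over these 8 was -0.08 and -0.15, beside -0.08 and -0.06 over all tested genes. In PRAMEL7WT ESCs 3 of the 8 (*Igf2r*, *Rian* and *Kcnq1ot1*) had both libraries below both parental ones, as had 40% of all genes. In PRAMEL7ΔN ESCs *Meg3* joined them and *Cdkn1c* lay above, where 35.4% of all genes lay below and 21.6% above. Both comparisons share the parental libraries.

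**Figure D2:**
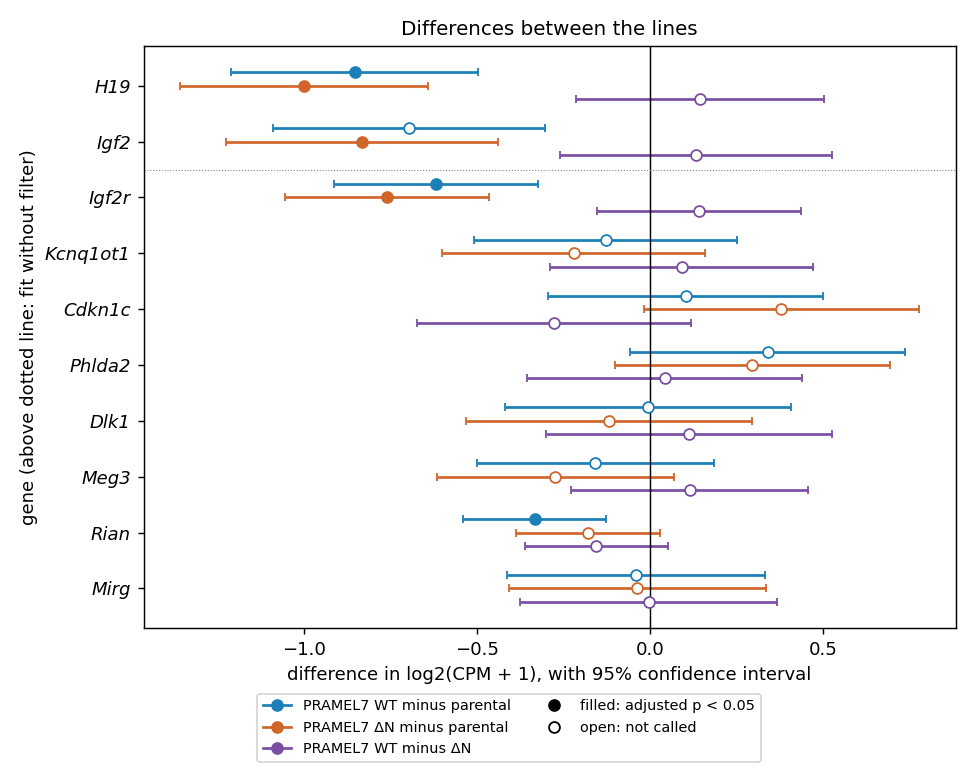
Difference in log2(CPM + 1) for each of the 10 genes with its 95% confidence interval from limma, for each derived line against parental ESCs and between the derived lines; filled points have an adjusted p under 0.05, and the genes above the dotted line come from the fit without a filter. The points of all genes except *Cdkn1c* and *Phlda2* lie left of 0 in both lines, and the medians over all tested genes are -0.08 and -0.06. Only for *H19*, *Igf2* and *Igf2r* do the intervals lie wholly left of 0 in both lines. No purple interval, for WT minus ΔN, excludes 0.

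Between PRAMEL7WT ESCs and PRAMEL7ΔN ESCs, 0 of the 8 members were called by limma, where 20.4% of all genes were, and none had an unadjusted p under 0.05. Voom also called 0. The difference was 0.14 for *Igf2r* (95% interval -0.15 to 0.44) and -0.28 for *Cdkn1c* (-0.67 to 0.12). For *H19* it was 0.15 (adjusted p = 0.684) in the fit without a filter and 2.23 with voom (unadjusted p = 0.028, adjusted p = 0.162). With 4 reads against 0, the *H19* difference between the derived lines was not called in either fit, and its size rests on these few reads. These intervals leave room for differences of about the size seen for *Rian*, and a p above the threshold does not show that the lines were alike.

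The parental libraries differed from each other for many members. Library 2 was above library 1 for *Meg3*, *Igf2r*, *Phlda2*, *Mirg* and *Rian* and below it for *H19*, *Igf2*, *Dlk1*, *Cdkn1c* and *Kcnq1ot1*. *Igf2r* was called in both lines without either parental library, at differences between -0.82 and -0.41 in PRAMEL7WT ESCs over all single libraries left out and between -0.97 and -0.55 in PRAMEL7ΔN ESCs.

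**Figure D3:**
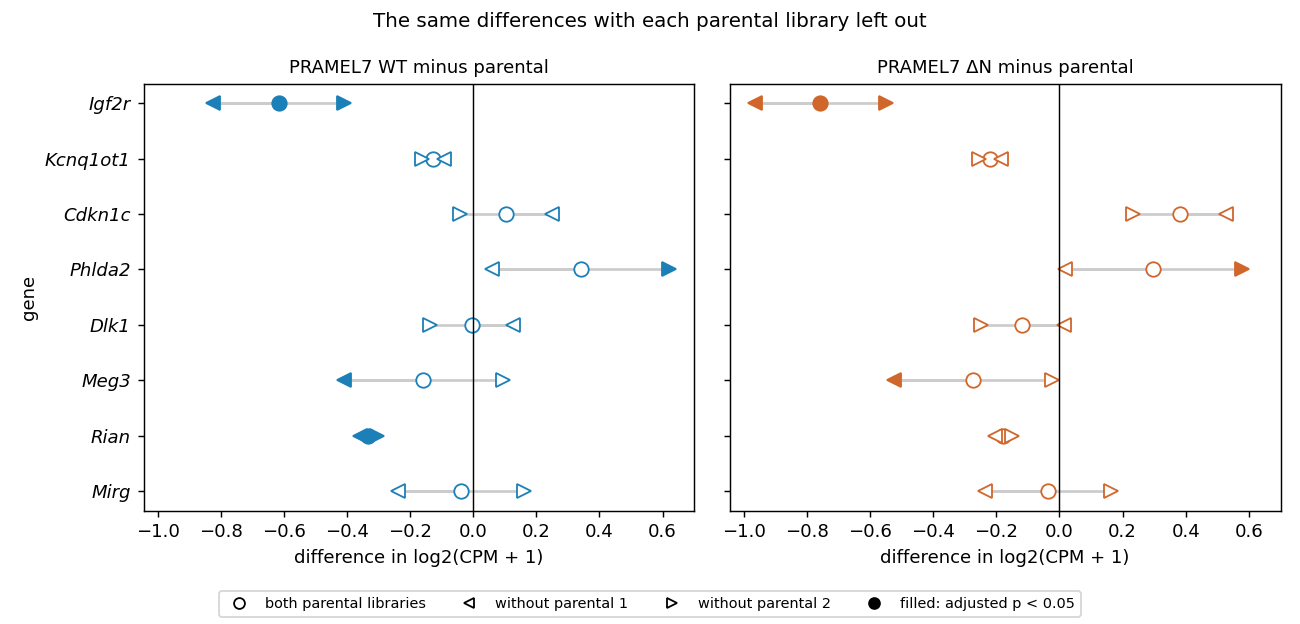
Difference in log2(CPM + 1) of the 8 tested members from parental ESCs with both parental libraries (circles) and with library 1 or library 2 left out (triangles pointing left and right); filled symbols have an adjusted p under 0.05. *Igf2r* stays filled throughout, *Meg3* is filled without library 1 alone, and *Phlda2* without library 2 alone.

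Compared per kb of exon, *Phlda2* and *Igf2r* were the highest members and *Kcnq1ot1* the lowest in parental ESCs. The parental levels were 20.2 ± 5.72 CPM per kb for *Phlda2* and 17.4 ± 3.54 for *Igf2r* (SD, n = 2), which overlapped. They were followed by *Rian* at 4.86 ± 0.132, *Meg3* at 2.46 ± 0.614, *Mirg* at 1.66 ± 0.351 and *Cdkn1c* at 1.56 ± 0.293, of which the last pair overlapped. *H19* and *Dlk1* (0.345 ± 0.067) overlapped as well, *Igf2* came below them, and *Kcnq1ot1*, whose transcript is annotated as 1 exon of 93.092 kb, was at 0.0266 ± 0.00128. In PRAMEL7WT ESCs *Phlda2* (25.4 ± 3.30) and *Igf2r* (11.2 ± 0.999) no longer overlapped, and *H19* had dropped to 0.0439 ± 0.0329, beside *Igf2* at 0.0546 ± 0.0228. In PRAMEL7ΔN ESCs *H19* was last.

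The genes around the clusters were described next, from lists of neighbours and from all tested genes within 1 Mb. Around *Igf2r*, 10 neighbours were tested, of which 0 were lower in either line, and 1 (*Agpat4*) and 2 (*Agpat4* and *Snora20*) were higher. Their median differences were -0.06 and 0.04, and those of chromosome 17 were -0.01 and -0.03. Around *H19* and *Igf2*, 15 neighbours had medians of 0.02 and 0.06, with 1 lower in PRAMEL7WT ESCs and 0 in PRAMEL7ΔN ESCs. Around the Meg3 cluster, 14 neighbours had medians of 0.12 and 0.09, with 0 and 1 lower. Around *Kcnq1ot1*, 4 of 16 neighbours were lower in PRAMEL7WT ESCs (*Dhcr7*, *Nadsyn1*, *Ppfia1* and *Tnfrsf22*) and 1 (*Dhcr7*) in PRAMEL7ΔN ESCs, where 10.5% of the 1027 tested genes of chromosome 7 were lower in each line. On chromosome 17 it was 10.4 and 8.39% of the tested genes, and on chromosome 12 15.01 and 9.93%. The windows of the 2 chromosome 7 clusters share genes.

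**Figure D4:**
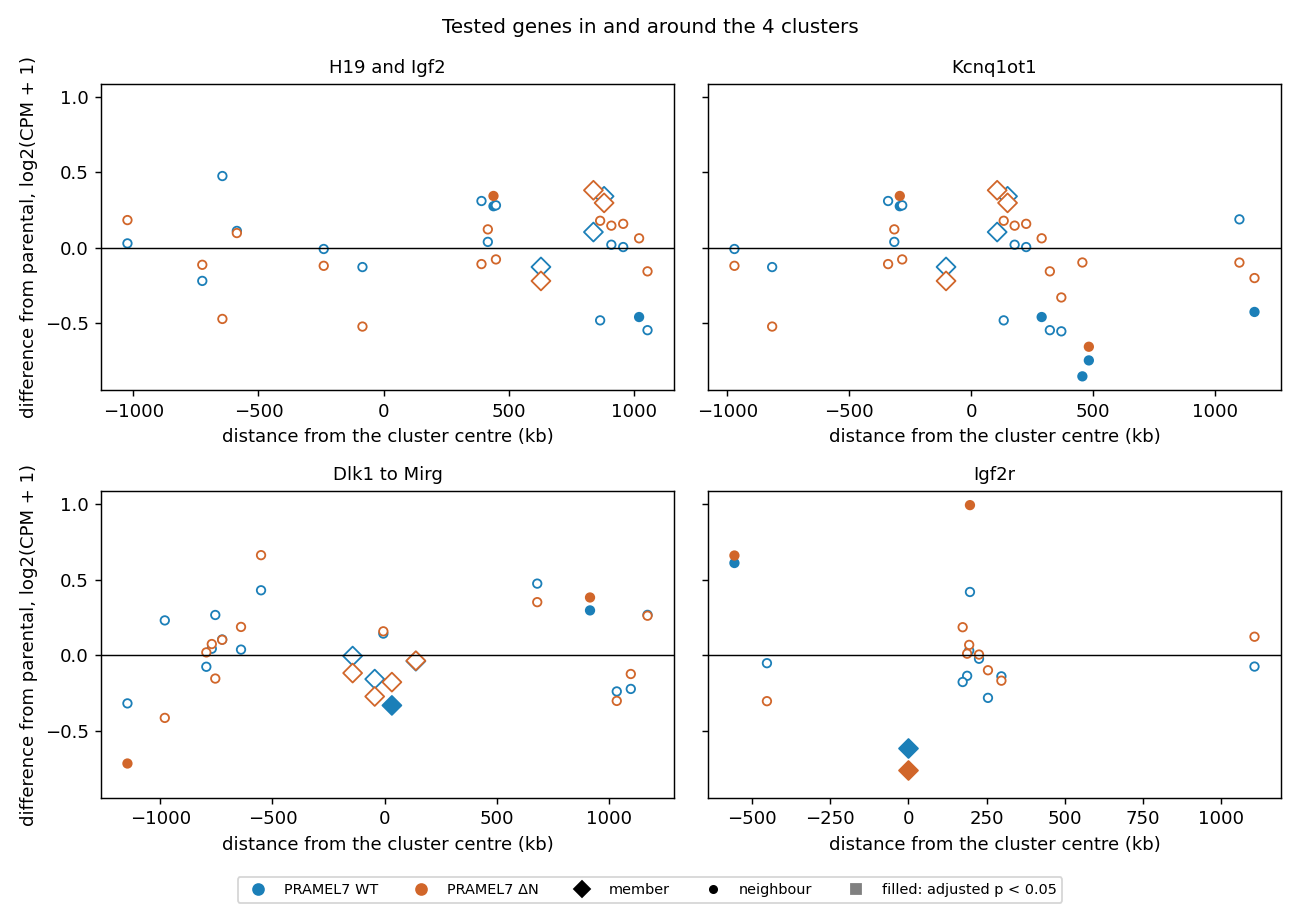
Difference from parental ESCs in log2(CPM + 1) against the distance in kb from the centre of each cluster, for all tested genes within 1 Mb of it; diamonds are members, circles are neighbours, and filled symbols have an adjusted p under 0.05. *H19* and *Igf2* are not drawn, since they did not pass the filter. *Igf2r* lies below all of its 10 neighbours in both lines.

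Other genes of these clusters were read from the lists of neighbours, of which some are imprinted only in placenta. *Slc22a18*, a transporter gene beside *Cdkn1c*, was at 5.005 and 6.72 CPM in parental ESCs, 3.19 and 4.68 in PRAMEL7WT ESCs and 8.23 and 5.44 in PRAMEL7ΔN ESCs, and was not called. *Rtl1*, a retrotransposon-derived gene of the Meg3 cluster, was at 1.57 to 2.81 CPM, and *Dio3*, a deiodinase gene at its far end, at 0.271 to 1.32 CPM, neither of them called. *Ascl2*, a transcription factor of the trophoblast, had 5 to 29 reads and was not tested, and *Slc22a2* and *Slc22a3* had none. Of the listed neighbours that were called, *Dhcr7*, an enzyme of cholesterol synthesis, fell by 0.75 and 0.66 in the 2 derived lines. *Ppp2r5c*, a phosphatase subunit, rose by 0.30 and 0.38, and *Cd81*, a tetraspanin whose gene is imprinted in placenta, rose by 0.28 and 0.34. *Evl*, a regulator of actin, was higher in PRAMEL7WT ESCs than in PRAMEL7ΔN ESCs by 0.65.

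Of 14 factors that keep or change the methylation of imprints, all were tested, and 5 were called in each line. In PRAMEL7WT ESCs 2 were higher and 3 lower, and in PRAMEL7ΔN ESCs 3 were higher and 2 lower. Over all tested genes 8.71% were higher and 16.3% lower in the first line and 6.25% and 13.6% in the second, and nothing particular to these factors is read from their counts. *Dppa3*, which shields methylation in the zygote, was at 9.50 and 14.05 CPM in parental ESCs, 1.92 and 1.87 in PRAMEL7WT ESCs, and 1.00 and 0.950 in PRAMEL7ΔN ESCs. It fell by 2.12 (adjusted p = 0.000527) and 2.67 (adjusted p = 5.02e-05). *Uhrf1*, which guides DNMT1 to newly copied DNA, rose by 0.37 in both lines, while *Dnmt1* differed by 0.0029 and -0.05 and was not called. These are RNA levels. For protein, the study reported less UHRF1 in PRAMEL7WT ESCs but not in PRAMEL7ΔN ESCs, and less DNMT1 in ESCs with PRAMEL7. In its own RNA-seq comparison of PRAMEL7WT ESCs it found no significant change of *Uhrf1*. The study selected genes there with a log2 limit of 0.58, which the rise of 0.37 does not reach. *Zfp57*, the zinc finger protein that holds imprints, rose by 0.38 in PRAMEL7ΔN ESCs, was not called in PRAMEL7WT ESCs (-0.05), and differed between the derived lines by -0.43 (adjusted p = 0.00936). *Dnmt3a* fell by 1.48 in PRAMEL7ΔN ESCs, and *Dnmt3b* rose by 0.89 in PRAMEL7WT ESCs. *Tet1* fell by 0.48 in PRAMEL7WT ESCs, and *Tet2* fell by 0.42 there and rose by 0.58 in PRAMEL7ΔN ESCs.

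Among 8 genes for IGF2 receptors and their adaptors, for the related factor IGF1 and for proteins that bind *Igf2* mRNA, 6 were tested. In PRAMEL7WT ESCs 1 was higher and 4 were lower, and in PRAMEL7ΔN ESCs 1 was higher and 2 were lower, beside 8.71% and 16.3% of all tested genes in the first line and 6.25% and 13.6% in the second. *Igf1r*, the signalling receptor for IGF2, was at 40.7 and 55.6 CPM in parental ESCs, 25.9 and 26.3 in PRAMEL7WT ESCs, and 41.8 and 41.7 in PRAMEL7ΔN ESCs. It fell by 0.84 in PRAMEL7WT ESCs and differed between the derived lines by -0.66 (adjusted p = 0.0111). *Insr* fell by 0.66 in PRAMEL7WT ESCs. The mRNA-binding proteins *Igf2bp1* and *Igf2bp2* fell in both lines, by 0.42 and 0.66 in PRAMEL7WT ESCs and by 0.46 and 0.48 in PRAMEL7ΔN ESCs, and *Igf2bp3* rose by 0.75 in PRAMEL7ΔN ESCs. *Irs2*, an adaptor of both receptors, rose by 0.77 in PRAMEL7WT ESCs.

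The genes whose levels followed those of a member most closely over the 6 libraries were found by Pearson's r of log2(CPM + 1), as a description, among 8559 or 8560 genes with a mean of at least 10 CPM. For *Igf2r* they were *Sugp2*, *Pycr1* and *Insig1*, with r of 0.999, 0.997 and 0.997. For *Meg3* they were *Myh14*, *Tbc1d22b* and *Rad9a*, with r of 0.996, 0.993 and 0.991. For *Kcnq1ot1* they were *Seh1l*, *Lpgat1* and *Thoc7*, with r of 0.985, 0.984 and 0.984. The points share the libraries and their scaling, and 133 genes had r above 0.95 with *Igf2r*, 38 with *Meg3* and 15 with *Kcnq1ot1*.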

How the data were processed

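Poly(A) RNA from the 3 lines, 2 libraries each, was sequenced from an unstranded kit. According to the study's methods, the authors filtered out ribosomal RNA (SortMeRNA), trimmed the rest (Trimmomatic), aligned it to mm10 (STAR) and took exon coverage per gene from a pipeline of their own; the submitters' processing notes name Subread 1.4.6-p4. The deposited values are RPKM. Their length was the whole gene span (GENCODE M21): multiplying by it gave whole reads (tolerance 0.1) for 98.1 to 98.4% of values up to 20 reads, and exon length for 43.5 to 45.7%. CPM was RPKM times span times 1 constant, so the authors' scaling was kept. Of 50978 rows, 176 with repeated or date-like names, 2796 without a match and 66 with several were left out.

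A filter of more than 1 CPM in 2 or more libraries left 12914 genes, and log2(CPM + 1) was fitted by limma 3.58.1 (R 4.3.3), with a trend, all 6 libraries in 1 fit and Benjamini-Hochberg adjustment; called means adjusted p under 0.05. The study's methods name count-based tools, which need counts, and speak of triplicates, whereas 2 libraries per line were given. The filtered fit was run on simulated data with changes in the PRAMEL7WT libraries alone. That run does not cover the fit without a filter. Count intervals are exact and cover counting error only. The members and gene lists were chosen with earlier results of these data known. Named genes are the members, list genes that were called or are imprinted, the 3 genes most like a member, and called genes within 1 Mb, named after their values were seen. The authors' tables of their own comparisons (fold changes and p-values) were not used, and the ChIP-seq samples were not analysed here.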

Additional observations from a re-analysis of the deposited data

How the results depend on the processing

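Each result was recomputed with 1 choice changed at a time, or 2 where a low-value filter was changed together with another choice, and 35 of the values for single genes turned direction, 27 lost and 6 gained a call, and 478 kept both. The differences of *Igf2r* kept their direction in both lines under every alternative run. In PRAMEL7WT ESCs the 2 called members became 1 (*Igf2r*) under median-ratio scaling, without a mean-variance trend, with the correction for GC content and length, and with an unadjusted p and a log2 limit of 0.58. They became 0 in RPKM, where 1 member could be tested. In PRAMEL7ΔN ESCs the 1 called member became 3 without a filter (*H19*, *Igf2* and *Igf2r*) and 0 in RPKM. Over the 6 fits that each leave out 1 library, the counts ranged from 0 to 3 in PRAMEL7WT ESCs, from 1 to 2 in PRAMEL7ΔN ESCs and stayed at 0 between the derived lines. The cause was not tested, except that RPKM leaves fewer members and a missing library fewer samples.

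The members that turned direction were not called before or after, other than *Rian*. With the correction for GC content and length, the differences in PRAMEL7WT ESCs became 0.084 for *Rian*, 0.035 for *Meg3*, 0.035 for *Mirg*, 0.028 for *Dlk1*, -0.033 for *Cdkn1c* and 0.39 for *Kcnq1ot1*. In PRAMEL7ΔN ESCs they became 0.068 for *Mirg* and 0.040 for *Kcnq1ot1*, and between the derived lines 0.12 for *Rian* and -0.15 for *Phlda2*. Under median-ratio scaling *Mirg* became 0.052, 0.041 and 0.011 in the 3 comparisons and *Dlk1* 0.059 in PRAMEL7WT ESCs. Under quantile normalization *Mirg* became 0.078 and 0.080 in the 2 lines, *Dlk1* 0.15 and 0.077, and *Kcnq1ot1* 0.028 in PRAMEL7WT ESCs.

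With single libraries left out, the differences in PRAMEL7WT ESCs ranged from -0.41 to 0.093 for *Meg3*, -0.24 to 0.16 for *Mirg*, -0.14 to 0.13 for *Dlk1* and -0.042 to 0.25 for *Cdkn1c*. In PRAMEL7ΔN ESCs they ranged from -0.24 to 0.16 for *Mirg* and from -0.25 to 0.014 for *Dlk1*. Between the derived lines they ranged from -0.13 to 0.12 for *Mirg*, -0.015 to 0.24 for *Dlk1*, -0.085 to 0.17 for *Phlda2*, -0.014 to 0.20 for *Kcnq1ot1* and, without a filter, -0.046 to 0.31 for *Igf2*.

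Replicate numbers did not pair the libraries: the deviations of same-numbered libraries correlated at 0.207 between parental and PRAMEL7WT ESCs, -0.25 between parental and PRAMEL7ΔN ESCs and -0.103 between the derived lines. With the number as a replicate block, the counts were 2, 1 and 0 as before, and *Igf2* in PRAMEL7WT ESCs, in the fit without a filter, became called (adjusted p = 0.0341). In PRAMEL7ΔN ESCs its call was lost with a pseudocount of 0.1 (0.0681). Fits with the filter at 0.5 CPM, voom without a filter and the other changes combined with no filter were added after seeing the data, and a filter of 0.5 CPM admits *H19* and *Igf2* through the parental libraries alone, so its calls of them support nothing. With 1 read worth about 0.05 CPM, *H19* and *Igf2* are limited by counting error, and 2 libraries a line limit the rest.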
